A study of Mus musculus with 9 samples.

Results

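The genes described here are the members of 6 families of RNA-binding proteins, most of which act on pre-mRNA splicing, in the striatum of adult mice. They were taken by symbol as every gene that starts with Srsf, Hnrnp, Celf, Rbfox or Elavl, or with Rbm followed by a digit. Of the 15464 genes in the deposited table, 80 had such a symbol, and 79 of these reached a value of 10 or more in 3 or more libraries. The 79 members comprised 11 Srsf, 20 Hnrnp, 6 Celf, 3 Rbfox, 4 Elavl and 35 Rbm genes. The gene below the filter, *Hnrnpa1l2-ps2*, had normalized counts between 0 and 10.5 over the 9 libraries, and 14239 genes in all passed the filter.

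Striatal RNA came from male mice aged 10 to 12 weeks on a C57BL/6J background, with 1 mouse per library. There were 3 wild-type (WT) mice, 3 heterozygous (HET) mice with 1 intact copy of *Shank3*, and 3 knock-out (KO) mice with 0 intact copies. HET and KO mice carried the *Shank3B* mutation, in which a block of internal exons of the synaptic scaffold gene *Shank3* is targeted, so that transcripts from the rest of the gene remain possible. The comparison asks whether the dose of *Shank3* moves the expression of these families.

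Serine and arginine rich splicing factors (Srsf) bind exonic enhancers and recruit the spliceosome, while heterogeneous nuclear ribonucleoproteins (Hnrnp) coat nascent transcripts and often oppose them. Rbfox, Celf and neuronal Elavl proteins bind short sequence elements and set the inclusion of alternative exons or the stability of transcripts, and they are known regulators of exon choice in neurons. Rbm is a naming class for proteins with an RNA recognition motif rather than 1 family by descent, and it runs from spliceosome subunits to factors restricted to muscle or germ cells. Many of these genes control their own amount by splicing in a poison exon, which sends the transcript to nonsense-mediated decay.

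In the GENCODE annotation of GRCm38, a transcript marked for nonsense-mediated decay was listed for 34 of the 79 members (43.0%), against 27.5% of the 14220 protein-coding genes tested. The share was 81.8% among Srsf genes (9 of 11), 50% among Hnrnp genes (10 of 20) and 34.3% among Rbm genes (12 of 35). No such transcript was listed for any of the 3 Rbfox or 4 Elavl genes. A transcript with a retained intron was listed for 67.1% of members and 57.2% of the protein-coding genes tested. The median member had 7 annotated transcripts, against 5 for a protein-coding gene tested, and a gene with more annotated transcripts has more chances to list one of either kind. A listed decay transcript does not show a poison exon or self-control. These are properties of the annotation and not of the libraries, and the values below sum all transcripts of a gene, so that a switch between a productive and a decay transcript could pass without a change in the sum.

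Promoter sequences were matched for 62 members, as RefSeq windows of 300 bases on GRCm38.p6 from 250 before to 50 after a transcription start that lay within 500 bases of the start of the principal transcript. Motifs were searched on both strands. An octamer known as the core of the CGCG element, TCTCGCGA, was in the windows of 6 of these members (9.68%) and of 228 of the 10523 windows of all genes tested (2.17%). The shares of the other motifs differed by a smaller ratio, although those of the CCAAT box and of TGACG differed by more percentage points. The GC box GGGCGG was in 61.3% of member windows and 65.5% of all windows, the CCAAT box CCAAT in 51.6% and 37.5%, the TATA box TATAAA in 11.3% and 7.04%, the cyclic AMP response core TGACG in 46.8% and 31%, and the ETS core CCGGAAG in 16.1% and 17.1%. The median window held 25 CG dinucleotides for members and 21 for all genes.

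The 6 members with the octamer are shown because it is the motif whose share differed most in ratio. In the 30 bases around it, on the strand of the gene, the octamer or its reverse complement is in capitals, and where both overlap the joined run is capitalised.
Hnrnph3: tcactcaagtaTCGCGAGAgcagcgcggca
Rbm15: agctctttgtcTCTCGCGAGAtcggagaga
Rbm26: ctcgcactcatTCTCGCGAGAtttaccggc
Rbm39: aggacgcacccTCGCGAGActtgggtgcag
Srsf10: cgggagccaagTCTCGCGAGAagaggcagt
Srsf4: ccacggcgagcTCGCGAGAggacgtgctgc
The stretches lie at chr10:63023962-63023991 on the minus strand for *Hnrnph3*, chr3:107333468-107333497 on the minus strand for *Rbm15*, chr14:105177303-105177332 on the minus strand for *Rbm26* and chr2:156180403-156180432 on the minus strand for *Rbm39*. Those of *Srsf10* and *Srsf4* are at chr4:135856075-135856104 and chr4:131873448-131873477 on the plus strand. In *Rbm15*, *Rbm26* and *Srsf10* the octamer was part of a run of 10 bases that reads the same on both strands. A match is a string of letters and does not show that a factor binds there.

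The 100 bases before the start are printed for 2 abundant members of the families best known as opponents in splicing, *Srsf5* and *Hnrnpa1*, and for the member with the smallest p in each comparison described below, *Srsf12*, *Rbm43* and *Rbm4b*. GC boxes, CCAAT boxes and TATA boxes on either strand are in capitals.
Srsf5: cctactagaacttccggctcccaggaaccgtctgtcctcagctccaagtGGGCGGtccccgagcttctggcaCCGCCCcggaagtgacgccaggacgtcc
Hnrnpa1: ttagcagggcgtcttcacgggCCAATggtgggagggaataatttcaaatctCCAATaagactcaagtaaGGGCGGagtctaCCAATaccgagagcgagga
Srsf12: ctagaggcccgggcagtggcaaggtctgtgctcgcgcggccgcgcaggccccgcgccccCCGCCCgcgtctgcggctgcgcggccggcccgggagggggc
Rbm43: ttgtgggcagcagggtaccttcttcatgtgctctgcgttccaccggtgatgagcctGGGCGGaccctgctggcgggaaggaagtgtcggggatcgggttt
Rbm4b: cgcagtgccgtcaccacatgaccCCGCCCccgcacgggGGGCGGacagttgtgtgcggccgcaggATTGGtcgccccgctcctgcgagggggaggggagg
They lie at chr12:80945399-80945498, chr15:103240297-103240396 and chr4:33209172-33209271 on the plus strand for *Srsf5*, *Hnrnpa1* and *Srsf12*. Those of *Rbm43* and *Rbm4b* are at chr2:51935164-51935263 on the minus strand and chr19:4756425-4756524 on the plus strand. The start meant here is that of the RefSeq window. GENCODE begins *Srsf12* at base 33208991 and *Rbm4b* at base 4756497, so the stretch of *Srsf12* lies inside the annotated gene and that of *Rbm4b* partly so.

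The deposited values are estimated reads per gene divided by a size factor per library, called normalized counts here, and they sum to between 30830020 and 33790296 per library. The depth in reads is unknown. *Shank3* itself checks the labels only in part, since its sum includes exons outside the targeted block. Its normalized counts were 7209, 8812 and 6043 in WT, 7575, 7098 and 8050 in HET and 10237, 10798 and 10578 in KO. All KO values exceeded all others, with a log2 fold change (log2FC) against WT of 0.54 (standard error 0.13). Its Benjamini-Hochberg adjusted p in limma was 0.999. HET replicate 3 and KO replicate 3 stood apart from the other libraries, with scores of 33.8 and 34.2 on a first principal component that held 33.6% of the variance, against scores between -17.0 and 1.35 for the other 7. Summed markers of medium spiny neurons, the main neurons of the striatum, ranged from 84214 to 163499 normalized counts in WT, from 114013 to 146486 in HET and from 75300 to 122536 in KO, and all 12 listed markers were among the genes tested. The lowest of these sums was that of KO replicate 3. Summed cortical glutamatergic neuron markers (8 of 8 tested) were highest in KO replicate 3 (57622), with WT replicate 3 next (53032), and lowest in HET replicate 1 (35956). Summed oligodendrocyte markers (8 of 8 tested) ranged from 156325 to 256656 in WT, from 219437 to 248626 in HET and from 134614 to 240430 in KO, the lowest in KO replicate 3. Summed pan-neuronal markers (6 of 6 tested, among them the member *Rbfox3*) ranged from 172626 to 192893 in WT, from 170585 to 206505 in HET and from 172505 to 230676 in KO, the highest in KO replicate 3, with HET replicate 3 next. Summed choroid plexus markers, 3 of 7 of which passed the filter, were lowest in HET replicate 3 (141) and KO replicate 3 (161), against 172 to 295 in the other libraries. Of 6 thalamic and septal markers, all tested, 2 had an unadjusted p under 0.05 in some comparison (limma), and their sums ranged from 2627 to 2902 in WT, from 2807 to 3026 in HET and from 2634 to 3396 in KO. No other list had such a marker, 2 of 5 blood markers were not analysed here, and no list had a marker at 0 in every library. In a single comparison 0.822% to 1.31% of all genes tested had an unadjusted p under 0.05 (limma). The share of all genes in any comparison was not counted. In bulk tissue, fewer cells of a type and less RNA per cell cannot be told apart.

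The families covered more than 3 orders of magnitude in level. Levels were compared between genes per kilobase of merged annotated exons, as the mean normalized count of the WT libraries divided by that length. They ran from 1.66 ± 0.396 (SD, n = 3) for *Rbm47* to 2480 ± 245 (SD, n = 3) for *Rbfox1*. The median level of a member in WT was 1530 normalized counts per kb in the Rbfox family, 1070 in Hnrnp, 978 in Celf, 671 in Srsf, 266 in Elavl and 152 in Rbm. With the length of the longest transcript in place of merged exons the medians were 2820, 1360, 1600, 992, 399 and 239 in the same order, so that Celf stood above Hnrnp. The members together held between 0.831% and 0.976% of all normalized counts of a library, with Hnrnp genes at 0.300% to 0.373% and Rbfox genes at 0.0857% to 0.0952%. By merged exons, the 10 members with the highest level in WT were *Rbfox1*, *Srsf5*, *Hnrnpa1*, *Hnrnpa3*, *Hnrnpa2b1*, *Celf5*, *Hnrnpk*, *Rbfox3*, *Hnrnpdl* and *Celf4*. With the longest transcript as the length, 9 of the 10 stayed in the first 10, and their order changed.

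**Figure D1:**
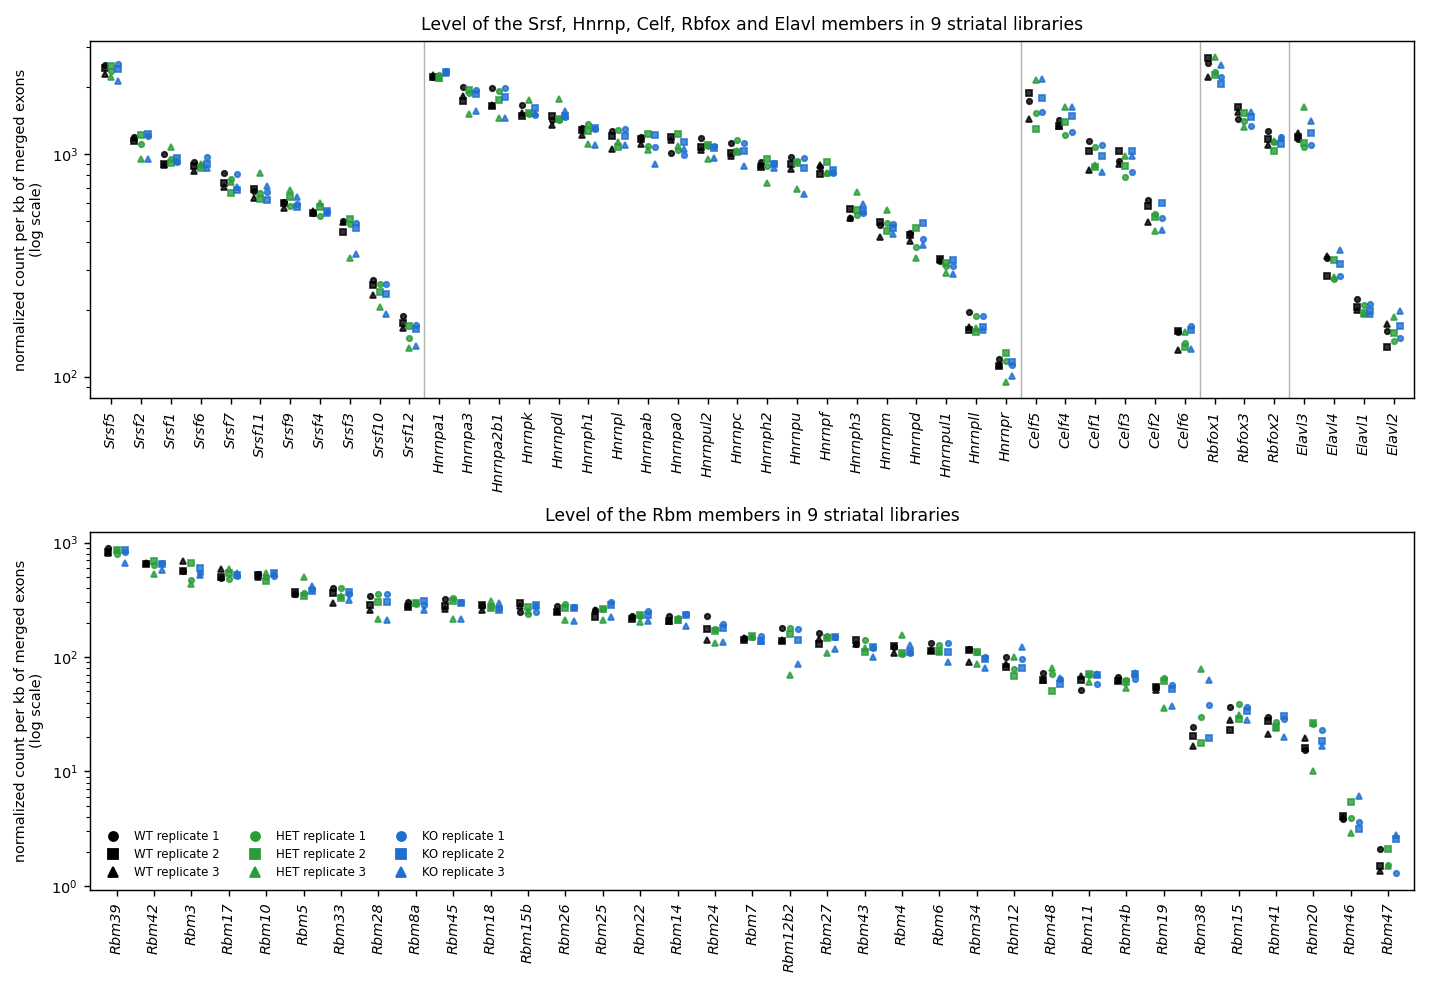
Level of each member in each of the 9 libraries, as normalized counts per kilobase of merged exons on a log axis, ordered within each family by mean level. Black, green and blue points are WT, HET and KO libraries and the shape is the replicate number. The 3 colours overlap for nearly all members, the spread of levels between members is far wider than between mice, and HET replicate 3 and KO replicate 3 of *Rbm38* sit above its other points.

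All 3 Rbfox genes, whose proteins bind UGCAUG elements beside alternative exons, were abundant. *Rbfox1* had 11220, 11802 and 9713 normalized counts in WT, 10227, 9918 and 11955 in HET and 9717, 9082 and 10988 in KO. *Rbfox3*, which encodes the neuronal nuclear antigen NeuN, had 8316, 9388 and 8991 in WT, 8126, 8910 and 7692 in HET and 7722, 8501 and 8974 in KO. *Rbfox2*, expressed also outside neurons, had 10304, 9509 and 8895 in WT, 9225, 8402 and 9320 in HET and 9636, 9036 and 9617 in KO. For each gene the ranges of the 3 genotypes overlapped. Per kilobase in WT, *Rbfox1* at 2480 ± 245 (SD, n = 3) was above *Rbfox3* at 1529 ± 93.2, and *Rbfox3* was above *Rbfox2* at 1176 ± 86.8, with gaps larger than the SDs. The 3 log2FC values were -0.03, -0.09 and -0.11 for *Rbfox1*, *Rbfox2* and *Rbfox3* in HET and -0.14, -0.02 and -0.08 in KO, the smallest unadjusted p of the 6 being 0.278 (limma).

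The Celf genes encode proteins that bind GU-rich elements. *Celf5* and *Celf4*, enriched in the nervous system, had the highest levels per kilobase in WT, at 1680 ± 220 and 1357 ± 49.7 (SD, n = 3), which differed by less than 2 SDs of *Celf5*. *Celf1* and *Celf3* followed at 1005 ± 153 and 952 ± 70.2, a gap within their spread, then *Celf2* at 567 ± 65.3 and *Celf6* at 150 ± 15.7. This order rested on the length, since the merged exons of *Celf2* span 25884 bases and its longest transcript 8856. Per kilobase of the longest transcript the order was *Celf4* (2915), *Celf5* (2550), *Celf2* (1656), *Celf3* (1549), *Celf1* (1081) and *Celf6* (176). *Celf5* had the widest spread between mice, with 11549, 12458 and 9590 normalized counts in WT, 10124, 8635 and 14319 in HET and 10283, 11814 and 14414 in KO. Its highest values were those of HET replicate 3 and KO replicate 3. *Celf4* had 12138, 11413 and 11386 in WT, 10416, 11946 and 13895 in HET and 10741, 12641 and 13844 in KO, again with replicate 3 highest in HET and KO. *Celf2*, a regulator of splicing in neurons and T cells, had 16132, 15050 and 12816 in WT, 13955, 13502 and 11701 in HET and 13264, 15484 and 11781 in KO, and here replicate 3 was lowest in each genotype. Its log2FC was -0.17 in HET and -0.12 in KO (standard error 0.13), the lowest of the family in both. *Celf1* had 9678, 8679 and 7112 in WT, 9021, 7332 and 7555 in HET and 9243, 8220 and 6994 in KO. *Celf3* had 5084, 5642 and 4905, 4296, 4839 and 5351, and 4512, 5615 and 5360. *Celf6* had 572, 578 and 477, 515, 490 and 573, and 612, 586 and 483. For *Celf1*, *Celf3* and *Celf6*, replicate 3 was neither lowest in both HET and KO nor highest in both. All 6 Celf genes had a higher fitted mean in KO than in HET, by 0.03 to 0.16 on the log2 scale, and 0 of them had an unadjusted p under 0.05 (smallest 0.423, limma).

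Among the Elavl genes, *Elavl3* was the most abundant, at 1195 ± 34.9 normalized counts per kb in WT (SD, n = 3). It was followed by *Elavl4* at 323 ± 34.9, the ubiquitous *Elavl1* (HuR) at 210 ± 12.9 and *Elavl2* at 156 ± 18.5, all stabilisers of transcripts with AU-rich elements. *Elavl3* had 8030, 8168 and 8498 normalized counts in WT, 7349, 7689 and 11202 in HET and 7557, 8498 and 9629 in KO. *Elavl2* had 1332, 1127 and 1428 in WT, 1206, 1306 and 1546 in HET and 1243, 1396 and 1632 in KO. Both were highest in replicate 3 of every genotype. *Elavl4* had 1829, 1525 and 1868 in WT, 1483, 1790 and 1509 in HET and 1521, 1725 and 1984 in KO. *Elavl1* had 2322, 2132 and 2065 in WT, 2170, 1997 and 1976 in HET and 2189, 2043 and 1978 in KO. The log2FC values ran from -0.13 (*Elavl4*) to 0.06 (*Elavl3*) in HET and from -0.07 (*Elavl1*) to 0.13 (*Elavl2*) in KO, and 0 of the 4 genes had an unadjusted p under 0.05 in any comparison.

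*Srsf5* and *Srsf2* led the Srsf family per kilobase in WT, at 2408 ± 110 and 1164 ± 25.6 (SD, n = 3). Per kilobase of the longest transcript *Srsf5* (2758) was still highest, and *Srsf11* (1824) was level with *Srsf2* (1813). *Srsf5* had 10001, 9674 and 9130 normalized counts in WT, 9386, 9877 and 8813 in HET and 10027, 9613 and 8447 in KO. *Srsf2*, which encodes the speckle protein SC35, had 3505, 3359 and 3466 in WT, 3271, 3588 and 2815 in HET and 3560, 3615 and 2790 in KO. Both were lowest in replicate 3 of HET and of KO. The log2FC was -0.04 in HET and -0.04 in KO for *Srsf5* and -0.10 and -0.06 for *Srsf2*, with standard errors of 0.10 and 0.12. *Srsf12*, a member that can oppose other SR proteins, had the lowest level, 175 ± 11.1 per kb.

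Among the Hnrnp genes, *Hnrnpa1* and *Hnrnpa3* were highest per kilobase in WT, at 2227 ± 30.3 and 1844 ± 144 (SD, n = 3), and *Hnrnpr* was lowest at 115 ± 4.24. Per kilobase of the longest transcript *Hnrnpk* (3382) and *Hnrnpa2b1* (3174) were highest, and *Hnrnpa1* was at 2252 and *Hnrnpa3* at 1932. *Hnrnpa3* had 10790, 9258 and 9796 normalized counts in WT, 10101, 10390 and 8147 in HET and 10376, 9995 and 8436 in KO. *Hnrnpa1*, a splicing repressor that competes with Srsf proteins, was among the steadiest genes, with 6985, 6948 and 7129 in WT, 7096, 6912 and 6923 in HET and 7431, 7372 and 7282 in KO. Its KO values lay above the 6 others. The log2FC was 0.07 against WT and 0.08 against HET (standard error 0.07, 95% interval of the first -0.10 to 0.23, Benjamini-Hochberg adjusted p = 0.999 and 1, limma). Exact two-sided permutation tests gave p = 0.1 for each, the smallest that 3 mice against 3 allow. Pseudogenes of *Hnrnpa1* are near copies, and how the estimate shared reads among them is not given in the sources used here. *Hnrnpa1* and *Rbfox2* are the 2 members on chromosome 15, that of *Shank3*. Linkage to the targeted locus was not tested.

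Of the Rbm genes, *Rbm39*, a splicing factor related to the U2 auxiliary factor, and *Rbm42* were highest per kilobase in WT, at 843 ± 41.8 and 661 ± 11.4 (SD, n = 3). Per kilobase of the longest transcript *Rbm39* (2084) was still highest, while *Rbm42* (811) fell below *Rbm3* (1023), *Rbm25* (918) and *Rbm5* (878). *Rbm39* had 6174, 5783 and 5607 normalized counts in WT, 5527, 5924 and 5919 in HET and 5742, 5926 and 4568 in KO, and *Rbm42* had 1462, 1418 and 1460, 1404, 1498 and 1161, and 1449, 1413 and 1270. At the other end, *Rbm47* and the germ cell gene *Rbm46* had between 7.2 and 20.2 normalized counts in every library, close to the filter. *Rbm20*, best known for splicing titin in the heart, was at 16.9 ± 2.32 per kb.

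No member differed between genotypes after adjustment. In limma with Benjamini-Hochberg adjustment over 14239 genes, 0 of the 79 members had an adjusted p under 0.05 in HET against WT, in KO against WT or in KO against HET, as did 0% of all genes tested in each comparison. At an unadjusted p under 0.05 the members called were again 0 of 79 in each, against 1.11% of all genes for HET, 0.822% for KO and 1.31% for KO against HET. The smallest adjusted p of a member was 0.999 in HET, 0.999 in KO and 1 in KO against HET. Over all genes tested the smallest was 0.811 in HET and 0.912 in KO (limma). *Shank3* was not called in KO here either. The paper called *Shank3* higher in KO, using DESeq2 with p-values corrected by an estimated null distribution (fdrtool) before adjustment. It also found the rise by qRT-PCR. That correction of p-values was not applied here. The absence of calls therefore does not show that no gene differs. HET and KO were set against the same 3 WT libraries, so that their values are not independent of each other.

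The intervals state how large a change these libraries leave room for. The 95% interval of the log2FC lay within a change of 1.5-fold in both directions for 72 of the 79 members in HET (91.1%, against 69.4% of all genes tested), for 72 in KO (91.1%, against 70.5%) and for 71 between KO and HET (89.9%, against 70.9%). Every Srsf, Hnrnp, Rbfox and Elavl gene was within that bound in each comparison. The exceptions were 7 Rbm genes in each comparison and, between KO and HET, *Celf5* (-0.27 to 0.59). The distance from the estimate to either end of the interval was 0.27 log2 units for the median member and 0.34 for the median gene tested, and it ran from 0.17 for *Hnrnpa1* to 1.18 for *Rbm38*.

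**Figure D2:**
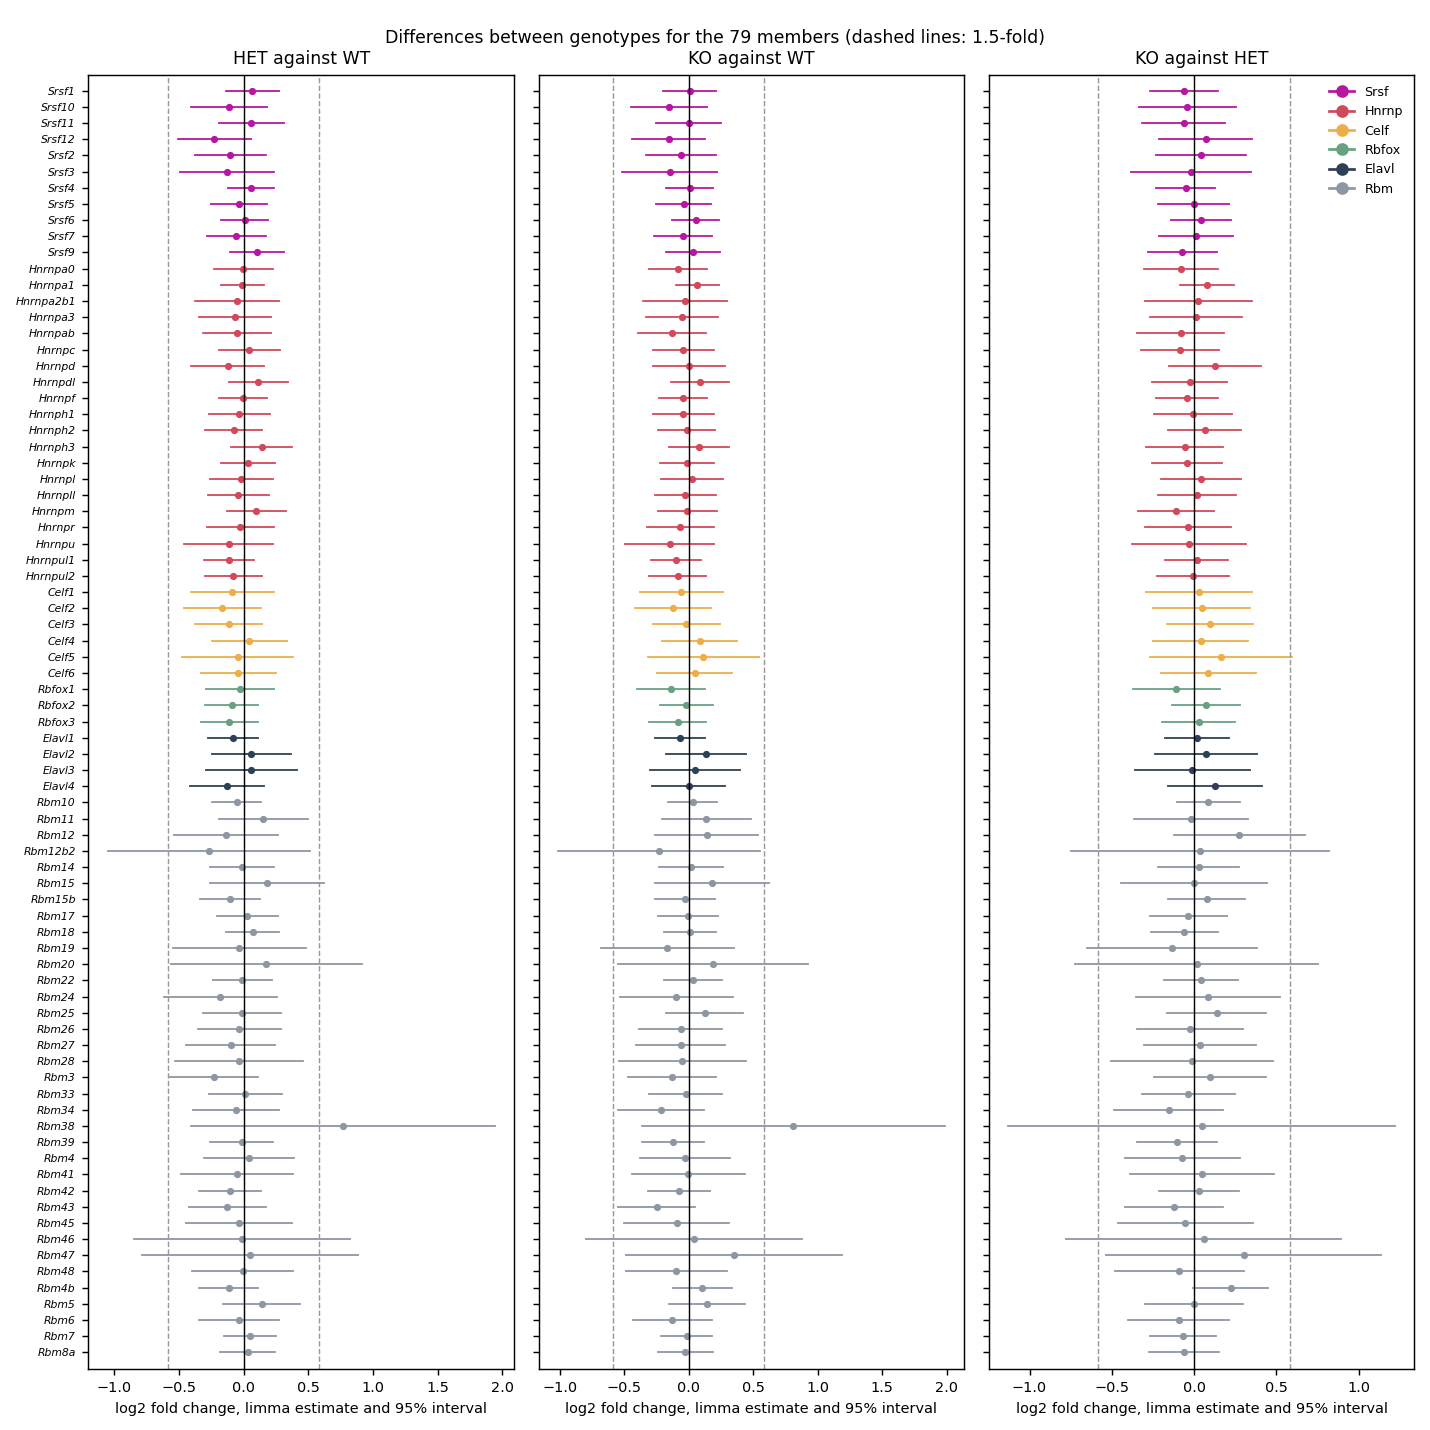
Log2 fold change of each of the 79 members with its 95% interval from limma, for HET against WT, KO against WT and KO against HET, coloured by family. The solid line is at 0 and the dashed lines at 1.5-fold. Every interval crosses 0, and the wide ones belong to Rbm genes such as *Rbm38*, *Rbm12b2*, *Rbm20*, *Rbm46* and *Rbm47*.

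The median log2FC of each family lay near 0 with all libraries. It was -0.04 in HET and -0.04 in KO for Srsf, -0.03 and -0.03 for Hnrnp, -0.07 and 0.01 for Celf, -0.09 and -0.08 for Rbfox, -0.01 and 0.02 for Elavl and -0.02 and -0.02 for Rbm. Over all members the median was -0.03 in HET and -0.02 in KO, against -0.003 and 0.005 for all genes tested. Fitted means were lower than WT for 54 of the 79 members in HET and for 51 in KO, while all genes tested split 7218 lower to 7021 higher in HET and 6885 to 7354 in KO. Between KO and HET, 41 members were higher and 38 lower. Leaving out 1 library moved the median of all members from -0.07 to 0.01 in HET (without WT replicate 3 and without WT replicate 1) and from -0.06 to 0.02 in KO (without the same 2 libraries). In such fits the sign of the median turned at least once for Srsf, Hnrnp, Elavl and Rbm in HET and for every family except Rbfox in KO. The Rbfox median stayed between -0.11 and -0.04 in HET and between -0.13 and -0.04 in KO. The Celf median ran from -0.15 (without WT replicate 3) to -0.01 (without WT replicate 1 or HET replicate 2) in HET and from -0.05 (without WT replicate 3) to 0.07 (without WT replicate 1) in KO. The Elavl median ran from -0.08 (without HET replicate 3) to 0.03 (without HET replicate 1) in HET and from -0.04 (without KO replicate 3) to 0.11 (without KO replicate 1) in KO.

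**Figure D3:**
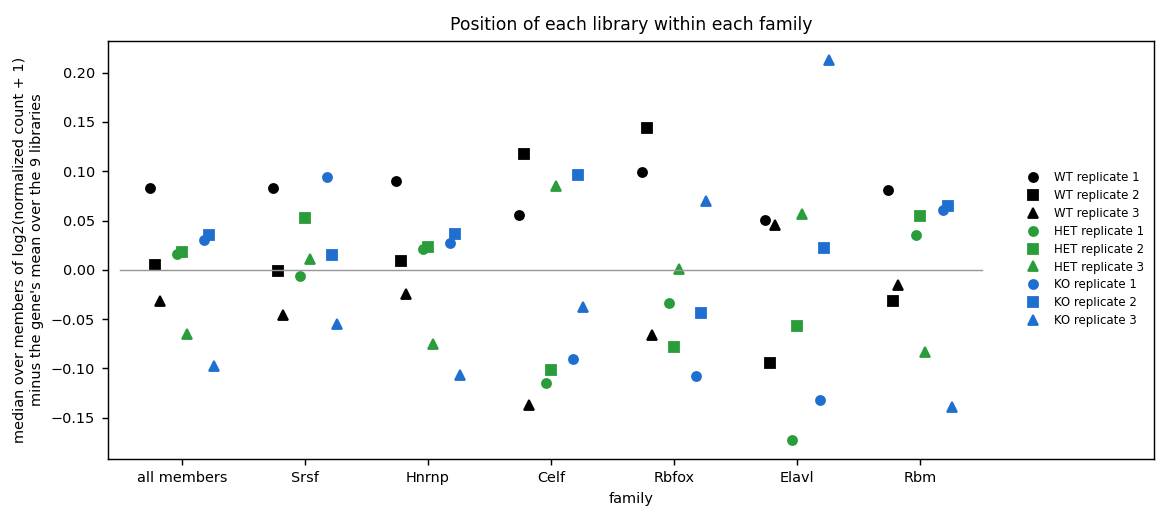
Position of each library in each family, as the median over members of log2(normalized count + 1) minus the mean of the gene over the 9 libraries. WT, HET and KO libraries are black, green and blue and the shape is the replicate number. WT replicate 1 is at 0.08 and KO replicate 3 at -0.10 for all members, the 3 genotypes overlap in every family, and replicates 3 of HET and KO are lowest for Hnrnp and Rbm but not for Celf, Rbfox or Elavl.

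Libraries differed in how often they held the extreme value of a member. HET replicate 3 held the lowest value of the 9 for 21 of the 79 members (26.6%, against 19.3% of all genes tested) and KO replicate 3 for 20 (25.3%, against 16.2%). WT replicate 1 held the highest value for 18 members (22.8%, against 11.7%). HET replicate 3 also held the highest value for 18 (22.8%, against 20.4% of all genes tested), among them *Rbm38*, *Hnrnpm*, *Hnrnpdl*, *Srsf11* and *Rbm5*. Within its own genotype replicate 3 was lowest in both HET and KO for 33 members (41.8%, against 26.1% of all genes tested) and highest in both for 16 (20.3%, against 27.6%). Lowest in both were 10 of 20 Hnrnp, 5 of 11 Srsf and 16 of 35 Rbm genes, but 1 of 6 Celf, 0 of 3 Rbfox and 1 of 4 Elavl genes.

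*Hnrnpu*, the nuclear scaffold attachment factor, shows this pattern, with 10751, 10527 and 8074 normalized counts in HET and 11120, 10033 and 7666 in KO, against 11196, 10422 and 9919 in WT. *Srsf3* shows it too, with 3810, 4021 and 2695 in HET and 3881, 3649 and 2799 in KO, against 3923, 3532 and 3890 in WT. Both genes were chosen for display after their values were seen. The summed oligodendrocyte markers were low in KO replicate 3 (134614) but not in HET replicate 3 (239251), while the pan-neuronal sums were high (230676 and 206505) and the choroid plexus sums low in both. Their part in this pattern was not tested, and the pan-neuronal list includes the member *Rbfox3*.

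**Figure D4:**
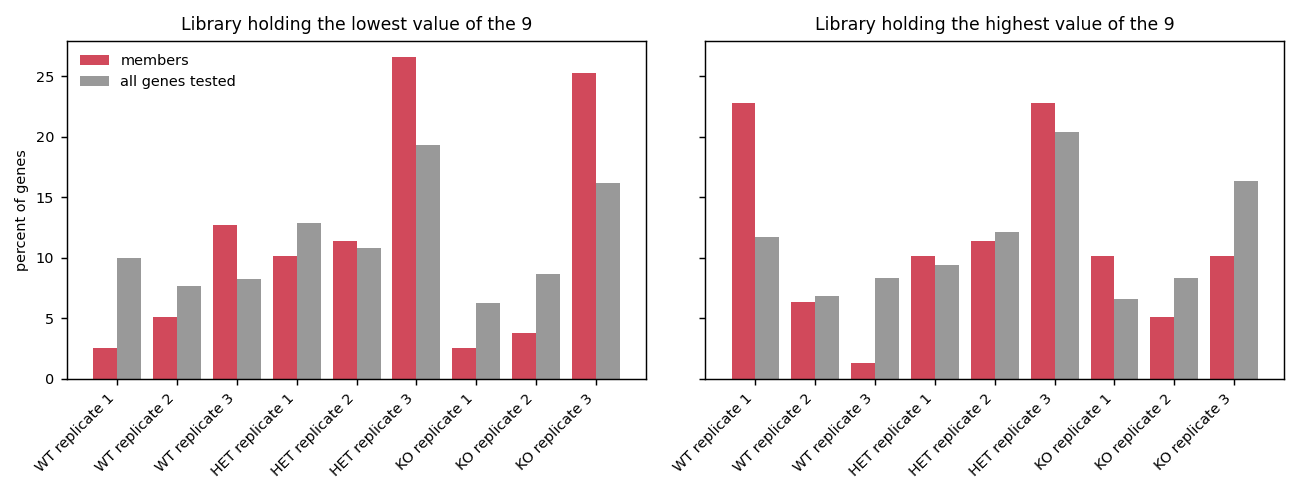
Percent of genes for which each library holds the lowest (left) or the highest (right) of its 9 values, for the 79 members (red) and all genes tested (grey). HET replicate 3 and KO replicate 3 hold the lowest value for 26.6% and 25.3% of members, and WT replicate 1 holds the highest for 22.8%.

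The members with the smallest unadjusted p are given with their values, although none passed an adjusted threshold. In HET against WT these were *Srsf12*, *Rbm3*, *Rbm38*, *Hnrnph3* and *Hnrnpul1*. *Srsf12* had 589, 546 and 519 normalized counts in WT, 467, 529 and 423 in HET and 538, 517 and 434 in KO. HET replicate 2 was above the lowest WT library, so that the groups overlapped. Its log2FC was -0.23 in HET (standard error 0.13, 95% interval -0.51 to 0.06, unadjusted p = 0.106, limma) and -0.16 in KO. Without HET replicate 2 the HET value was -0.31, and without HET replicate 3 it was -0.15. The KO value was -0.06 without KO replicate 3.

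*Rbm3*, a cold-inducible protein that binds RNA and is known for a role in synapse maintenance, was measured beside *Cirbp*, the other cold-inducible RNA-binding protein. *Rbm3* had 2666, 2663 and 3238 normalized counts in WT, 2229, 3125 and 2060 in HET and 2531, 2819 and 2452 in KO. *Cirbp* had 1327, 1568 and 1806 in WT, 1477, 1852 and 1268 in HET and 1499, 1740 and 1409 in KO. In both genes HET replicate 2 stood above the other HET libraries and the genotypes overlapped. The log2FC of *Rbm3* was -0.23 in HET (standard error 0.15, unadjusted p = 0.169, limma) and -0.13 in KO, and that of *Cirbp* was -0.04 and -0.01. The HET value of *Rbm3* was -0.41 without HET replicate 2 and -0.11 without HET replicate 3, and the KO value was -0.04 without WT replicate 3.

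*Rbm38*, a target and regulator of p53 that binds AU-rich and GU-rich elements, had the largest fitted differences of any member. It had 70.7, 58.5 and 48.0 normalized counts in WT, 86.6, 50.8 and 226 in HET and 109, 55.8 and 180 in KO. The high values were those of replicate 3 of HET and KO, and HET replicate 2 and KO replicate 2 lay within the WT range. Its log2FC was 0.77 in HET and 0.81 in KO (standard error 0.53, 95% intervals -0.41 to 1.94 and -0.36 to 1.99), and with replicate 3 of HET and of KO left out it was 0.18 and 0.41. Without HET replicate 2 it was 1.25 in HET (unadjusted p = 0.0378 and adjusted p = 0.974, limma), and without KO replicate 2 it was 1.25 in KO (unadjusted p = 0.0423 and adjusted p = 1, limma).

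*Hnrnph3* had 1626, 1784 and 1628 normalized counts in WT, 1678, 1766 and 2130 in HET and 1710, 1748 and 1873 in KO. Its log2FC in HET was 0.14 (standard error 0.10), 0.04 without HET replicate 3 and 0.21 without HET replicate 1. *Hnrnpul1* had 2845, 2921 and 2893 in WT, 2713, 2802 and 2511 in HET and 2725, 2892 and 2496 in KO. All HET values of *Hnrnpul1* lay below all WT values, with a log2FC of -0.11 (standard error 0.09, 95% interval -0.30 to 0.08), and those of KO did not. Without HET replicate 3 that log2FC was -0.07.

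In KO against WT the smallest p belonged to *Rbm43*, *Rbm38*, *Rbm34*, *Srsf12* and *Srsf10*. *Rbm43* had 343, 374 and 344 normalized counts in WT, 371, 289 and 317 in HET and 313, 320 and 264 in KO. All KO values lay below all WT values. Its log2FC was -0.25 (standard error 0.13, 95% interval -0.54 to 0.05, unadjusted p = 0.0955 and adjusted p = 0.999, limma), and -0.16 without KO replicate 3. *Rbm34* had 582, 568 and 450 in WT, 550, 553 and 435 in HET and 501, 476 and 402 in KO, and replicate 3 was lowest in every genotype. Its log2FC was -0.21 in KO (standard error 0.15, unadjusted p = 0.186, limma), -0.33 without WT replicate 3 and -0.12 without KO replicate 3. The replicate block left the log2FC at -0.21 and gave an unadjusted p of 0.0432 (adjusted p = 0.999, limma). That block rests on sample numbers that the labels do not explain and that showed no steady correlation between WT and KO.

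*Srsf10*, a splicing repressor that is activated by loss of its phosphate groups, had 1894, 1805 and 1620 normalized counts in WT, 1823, 1674 and 1444 in HET and 1822, 1648 and 1341 in KO. Replicate 3 was lowest in every genotype. Its log2FC was -0.15 in KO (standard error 0.13), -0.03 without KO replicate 3 and -0.25 without KO replicate 1.

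Between KO and HET the smallest p belonged to *Rbm4b*, *Rbm12*, *Hnrnpm*, *Hnrnpa1* and *Rbm34*. *Rbm4b* had 670, 621 and 622 normalized counts in WT, 625, 606 and 539 in HET and 636, 710 and 716 in KO. All KO values were above all HET values, and the WT values overlapped both. The log2FC was 0.22 (standard error 0.10, 95% interval -0.01 to 0.45, unadjusted p = 0.0567 and adjusted p = 1, limma), against 0.11 for KO over WT. With replicate 3 of HET and of KO left out it was 0.13. *Rbm4*, its closely similar neighbour on chromosome 19, had log2FC values of 0.04 in HET and -0.03 in KO, and reads may be shared between the 2 genes in a way that leaves each value uncertain.

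*Rbm12* had 665, 543 and 582 normalized counts in WT, 521, 457 and 666 in HET and 639, 539 and 815 in KO, with replicate 3 highest in both mutant genotypes. Its log2FC between KO and HET was 0.27 (standard error 0.18), 0.12 without KO replicate 3 and 0.42 without HET replicate 3. Its exons overlap those of *Cpne1* on the same strand. Such an overlap with another annotated gene was listed for 12 members, among them *Hnrnpm* (with *March2*), *Hnrnpa3*, *Elavl3*, *Rbm42* and *Rbm4*. *Hnrnpm* had 3807, 3938 and 3362 in WT, 3901, 3578 and 4443 in HET and 3836, 3695 and 3488 in KO. Its log2FC of -0.11 between KO and HET (standard error 0.10) turned to 0.01 with replicate 3 of HET and of KO left out, and was -0.18 without HET replicate 2 and -0.03 without HET replicate 3. That of *Rbm34* was -0.15, -0.27 without HET replicate 3 and -0.06 without KO replicate 3.

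**Figure D5:**
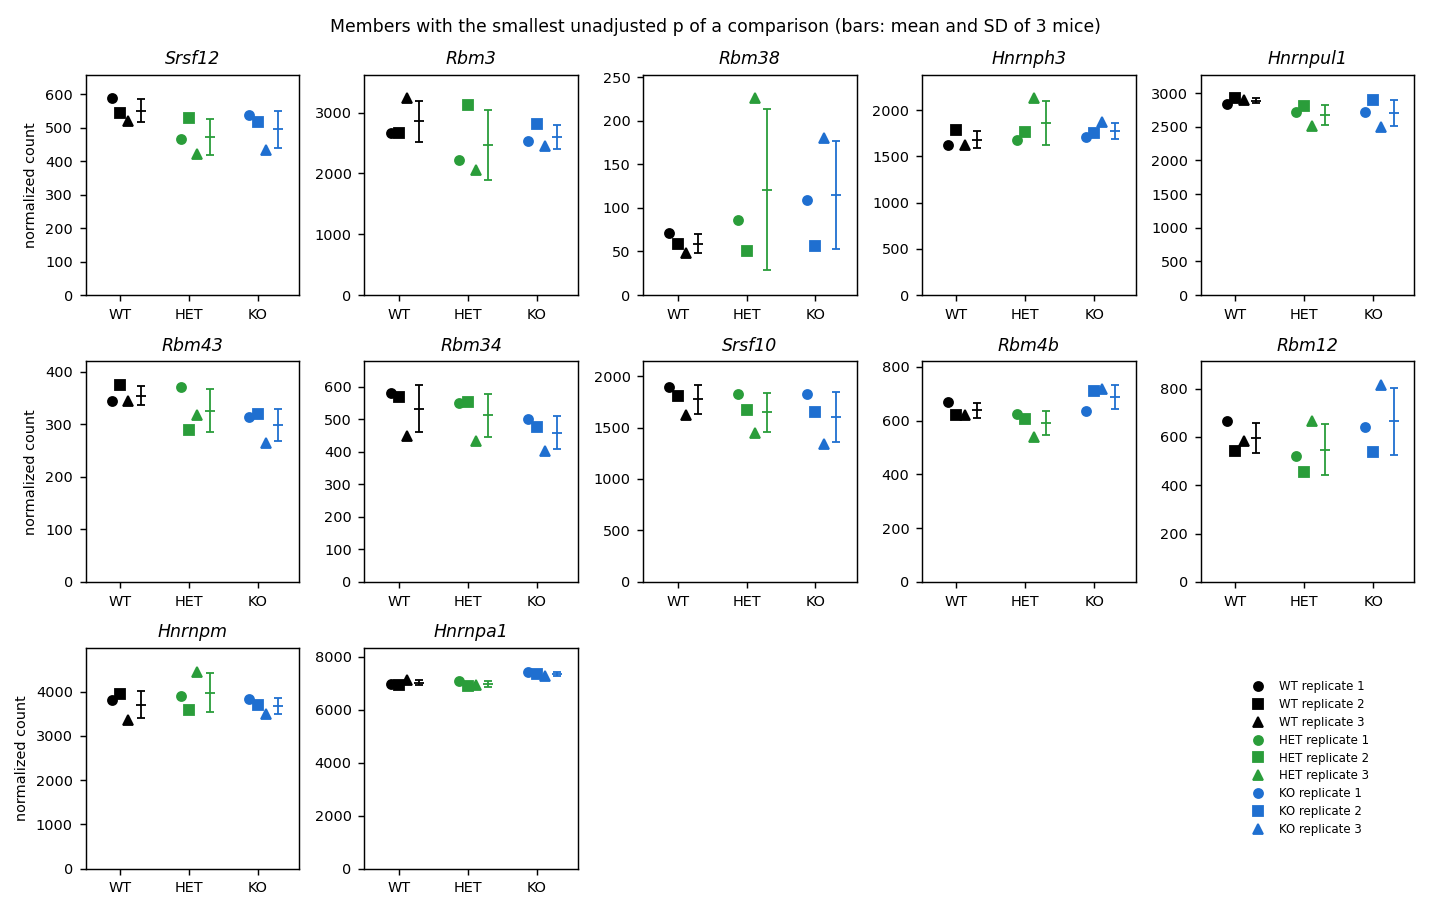
Normalized counts in each library for the members with the smallest unadjusted p of a comparison, on axes that start at 0, with the mean and SD of 3 mice beside the points of each genotype. The genotypes overlap in most panels, KO lies below WT for *Rbm43* and above HET for *Rbm4b*, and *Rbm38* is highest in replicate 3 of HET and of KO.

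Members whose 3 libraries did not overlap between genotypes were few. In HET against WT there were 2 of 79 (2.53%, against 4.45% of all genes tested), *Rbm7* higher and *Hnrnpul1* lower. In KO against WT there were 3 (3.8%, against 4.54%), *Hnrnpa1* and *Rbm5* higher and *Rbm43* lower. Between KO and HET there were 2 (2.53%, against 4.45%), *Hnrnpa1* and *Rbm4b*, both higher in KO. *Rbm7* and *Rbm5* were named after their values were seen. *Rbm5*, a tumour suppressor that controls exon choice in apoptosis genes, had log2FC values of 0.14 in KO and 0.14 in HET (standard error 0.13), and those of *Rbm7*, a subunit of the nuclear exosome targeting complex, were 0.05 in HET and -0.02 in KO.

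*Rbm38*, described above, and *Rbm20*, *Rbm25*, *Rbm3*, *Srsf12*, *Rbm12* and *Rbm4b* were the members with an unadjusted p under 0.05 in some fit that left out 1 library, or both replicate 3 of HET and of KO. *Rbm20* had 104, 108 and 133 normalized counts in WT, 176, 178 and 68.4 in HET and 155, 127 and 113 in KO. Without HET replicate 3 its log2FC in HET was 0.63 (unadjusted p = 0.00942 and adjusted p = 1, limma), against 0.17 with all libraries (95% interval -0.56 to 0.91). *Rbm25*, a regulator of apoptotic splice sites, had 4457, 3908 and 4508 in WT, 4588, 4580 and 3639 in HET and 5254, 4943 and 3916 in KO. With replicate 3 of HET and of KO left out its log2FC in KO was 0.25 (unadjusted p = 0.0171 and adjusted p = 1, limma), against 0.12 with all. *Rbm3* without HET replicate 2 had an unadjusted p of 0.00762 in HET (adjusted p = 0.974, limma). The unadjusted p of *Srsf12* was 0.048 in HET without HET replicate 2, that of *Rbm12* between KO and HET 0.0377 without HET replicate 3 and that of *Rbm4b* 0.0427 without KO replicate 1 (adjusted p between 0.974 and 1, limma). *Rbm20* and *Rbm25* were named after their values were seen, and no member had an adjusted p under 0.05 in any alternative.

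Genes that work beside these families were counted from 4 lists. Of 22 other splicing regulators, 9 kinases of SR proteins, 33 core spliceosome genes and 19 other RNA-binding proteins, all were among the genes tested, and 0 had an adjusted or an unadjusted p under 0.05 in any of the 3 comparisons (limma). Over all genes tested, 1.11% (HET against WT), 0.822% (KO against WT) and 1.31% (KO against HET) had such an unadjusted p (limma). In lists this short, a count of 0 therefore does not set these genes apart from other genes. The median log2FC of the 4 lists ran from -0.07 to 0.01 in HET and from -0.03 to 0.04 in KO. *Srrm4*, which promotes neuronal microexons, had the smallest p of its list in HET and between KO and HET. It had 1251, 838 and 902 normalized counts in WT, 949, 756 and 453 in HET and 1255, 1242 and 723 in KO, with a log2FC of -0.51 in HET (standard error 0.29, unadjusted p = 0.109, limma) and 0.60 between KO and HET (unadjusted p = 0.0678, limma). *Snrpb*, a core Sm protein, had 1410, 1388 and 1365 in WT, 1530, 1583 and 1645 in HET and 1515, 1319 and 1611 in KO. Its HET values were all above WT, with a log2FC of 0.19 (standard error 0.09, unadjusted p = 0.0665, limma).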

How the data were processed

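Striatal RNA of 9 mice (3 WT, 3 HET and 3 KO) was prepared with a stranded mRNA kit. The authors estimated transcript abundance with Salmon 0.9.1 on GRCm38 with GC bias correction, collapsed it to genes with tximport and scaled it by DESeq2 1.19.11 size factors in R 3.6.0, and the deposited signal is this normalized count per gene. The annotation release and the strand setting are not given in the sources used here. Whole reads were not recovered from the values, so no count test was used, the depth in reads is unknown and errors rest on differences among mice. No column of the table was left unused, and no pair of libraries shared identical nonzero values.

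Genes with at least 10 in at least 3 libraries were fitted as log2(normalized count + 1) with limma 3.58.1 (trend) in R 4.3.3, all 9 libraries in 1 fit, with Benjamini-Hochberg adjustment at 0.05. Fold changes are on that scale, which understates changes of low genes. For single genes an exact permutation test (two-sided, lowest possible p 0.1) was added. The fit was tested on simulated data. Coordinates, lengths and transcript types come from GENCODE vM21 (GRCm38), and figures were drawn with matplotlib 3.10.9.

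Members and lists were chosen with earlier results of these data known. Values in every library were given for the small families, the 2 highest members per length of the large families, the 5 smallest p per comparison, and *Rbm3* with *Cirbp*; any other gene so shown was chosen after its values were seen. Same-numbered HET and KO libraries correlated in their deviations from the genotype means (r = 0.515, 0.281 and 0.506 across genes). The values were 0.319, -0.0142 and 0.00538 for WT with HET and 0.243, -0.221 and 0.0244 for WT with KO. Deviations of a genotype cancel out over its libraries, so the values of a pair of genotypes depend on each other. Whether the numbers mark a pairing was not tested. The labels give only the numbers. Alternatives were other pseudocounts, filters, normalizations, variance priors, array weights, compared genotypes alone, the replicate block, and libraries left out.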

Additional observations from a re-analysis of the deposited data

How the results depend on the processing

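Over 22 alternatives 0 members and 0 genes in all passed the adjusted threshold in any of the 3 comparisons (limma). Of the values compared, 1019 kept their direction and side of the threshold or moved by less than the spread between mice, 14 moved and 1 reversed. Many could not move, since a change of the variance prior leaves a log2FC as it is. A turn of sign smaller than the spread between mice was counted as kept. Medians over members changed sign in between 0 and 6 of the 22 alternatives, the 6 for Rbm between KO and HET. Members at an unadjusted p under 0.05 numbered 0 of 79 in each comparison. With replicate 3 of HET and of KO both left out they were 1 in HET (*Rbm20*) and 1 in KO (*Rbm25*), against 275 and 219 of all genes tested. With array weights they were 2 in KO (*Rbfox1* and *Rbm25*), against 395. With quantile normalization they were 1 between KO and HET (*Rbm4b*), against 198. With 1 library left out they ran from 0 to 3 in HET (3 without HET replicate 2, against 394 of all genes tested). The range was 0 to 1 in KO (1 without KO replicate 2, against 149) and 0 to 2 between KO and HET (2 without HET replicate 3, against 288). Under the replicate block the count was 1 in KO (*Rbm34*, unadjusted p = 0.0432 and adjusted p = 0.999, limma), and the block changed no other call of a member.

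Over all genes the unadjusted counts were 158 in HET, 117 in KO and 186 between them. They were 365, 310 and 318 under the replicate block, 275, 219 and 227 with both replicates 3 left out, 201, 395 and 274 with array weights, 210, 176 and 229 without a trend in the prior, and 113, 76 and 139 with a filter of 50. With 1 library left out they ran from 119 to 394, from 72 to 292 and from 141 to 303.

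The median log2FC between KO and HET ran from -0.053 to 0.0707 for Srsf and from -0.0547 to 0.0508 for Hnrnp with 1 library left out, both highest without KO replicate 3. For Rbfox it was -0.0706 with both replicates 3 left out, against 0.0270. The log2FC of *Hnrnpm* between KO and HET reversed to 0.011 in that setting. Fewer libraries were fitted there, and the cause was not tested otherwise. The precision rests on 3 mice per genotype.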
